A study of Homo sapiens with 8 samples.

Results

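The 36 genes described here encode the enzymes of cholesterol and fatty acid synthesis, the SREBP proteins and their partners that control them, and carriers that move sterols within and out of the cell. They were chosen by name as genes of the pathway, with earlier results of these data known, and all 36 were among the 61228 gene rows of each count table and among the 21307 genes with enough reads to be tested. RNA came from 2 human lung adenocarcinoma cell lines, H1975 and HCC44, each labelled genotype WT, with 2 libraries per group in 4 groups. The control groups were H1975 and HCC44 cultures given the solvent DMSO, and the treated groups were cultures of the same lines given ACBI1, all with a labelled time of 96 hours. ACBI1 is a degrader that joins the VHL ubiquitin ligase to SMARCA2, SMARCA4 and PBRM1, subunits of the SWI/SNF chromatin remodelling complexes, so transcripts of these targets do not check the treatment. The labels give its concentration as 1 mM, a value far above those usual for degraders, and the unit is therefore uncertain. All cultures were grown in RPMI-1640 with fetal bovine serum, which carries lipoprotein cholesterol, and each line is a single established line.

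Cells make cholesterol from acetyl-CoA through mevalonate, isoprenoid diphosphates and squalene, and they make fatty acids from the same acetyl-CoA. When sterols in the endoplasmic reticulum are low, SCAP escorts the SREBP precursors to the Golgi, where proteases release the transcription factor part that activates the synthesis genes. When sterols are high, INSIG proteins hold SCAP back, and oxidised sterols activate the LXR receptors, which raise the export pumps ABCA1 and ABCG1 and the uptake-limiting ligase MYLIP.

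In HCC44, 21 of the 36 genes rose with ACBI1 and 4 fell, while in H1975 5 rose and 5 fell. The rise in HCC44 ran through the mevalonate steps (6 of 7 rose), the squalene and sterol steps (6 of 11), the SREBP controllers (3 of 5) and the fatty acid genes (5 of 9). The export pump ABCA1 fell in both lines, by 1.45 and 1.63 on the log2 scale. Of all tested genes, 34.9% were called in HCC44, 17.5% as higher and 17.4% as lower. In H1975 31.3% were called, 14.6% as higher and 16.7% as lower, so the share of members called there (10 of 36) was near that of all genes. The median log2 fold change of the members was 0.57 in HCC44, against 0.01 for all tested genes, and 0.02 in H1975, against -0.01 (0.01 without ABCG1, which had almost no reads there). Calls leaned upwards where libraries were scaled by their totals alone: 72.3% of all calls in H1975 were then higher, against 46.6% with TMM factors, and 60.5% in HCC44, where TMM factors gave 3720 higher and 3718 lower calls. Under that scaling 10 members rose and 5 fell in H1975, and 26 rose and 4 fell in HCC44. A gene is said to have risen or fallen where the two-sided p of edgeR's quasi-likelihood test, after Benjamini-Hochberg adjustment over all tested genes, was under 0.05.

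The libraries held 62467286 to 70455517 reads assigned to genes, and counting noise alone did not account for the spread within any group. Levels are given as CPM, counts scaled to a common library size, on TMM-scaled library sizes, and log2 fold changes with their standard error (SE). The labels do not say that replicates came from separate cultures, so p-values measure the spread between these libraries. HCC44 ACBI1 replicate 2 stood apart within its group: the 36 genes took 0.804% of its reads, against 0.608% in replicate 1, 0.397 and 0.446% in the HCC44 DMSO libraries and 0.33 to 0.437% in H1975. As for the cells themselves, the lung marker NKX2-1 was at 24.3 and 27.5 CPM in H1975 DMSO and at 0.0318 CPM or less in every HCC44 library, and summed CPM of 8 epithelial markers was 5635 ± 241 (SD, n = 2) in H1975 DMSO and 984 ± 26.2 (SD, n = 2) in HCC44 DMSO. SFTPC and SCGB1A1 were at or near 0 throughout, as were the blood markers PTPRC and CD3E.

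**Figure D1:**
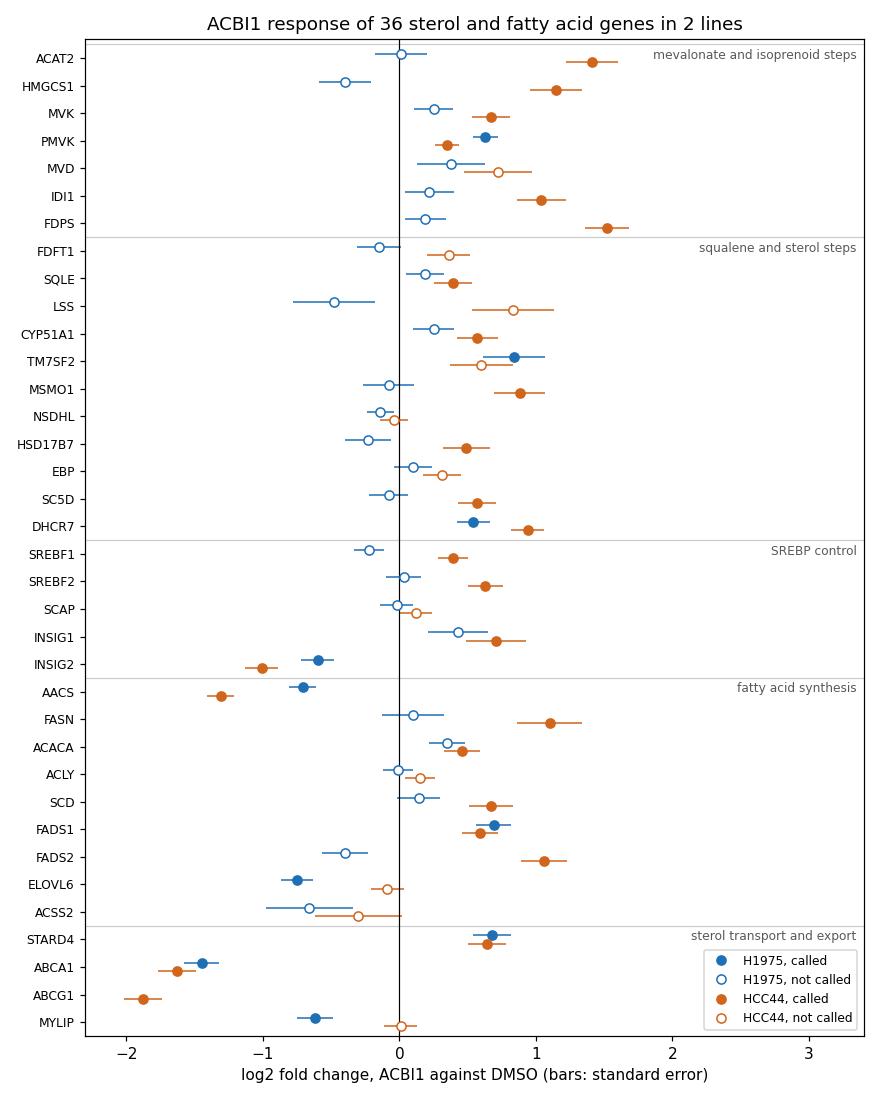
Log2 fold change of ACBI1 against DMSO (x axis) for each of the 36 genes (y axis, grouped by role) in H1975 (blue) and HCC44 (orange). Filled points passed the test, open points did not, bars are 1 SE, and ABCG1 has no H1975 point because it was at 3 counts or fewer there. In HCC44 21 filled points lie right of 0 and 4 left of it, and in H1975 there are 5 on each side.

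The stretches of DNA just before 6 of the genes are printed to show what the members share and where they differ: 3 synthesis genes that rose in HCC44 (FDPS, HMGCS1, MSMO1), the controller SREBF2, and 2 genes that fell in both lines (INSIG2, ABCA1). They come from RefSeq promoters of build GRCh38.p14, which reach from 250 bases before to 50 bases after the annotated start, and are cut where the first annotated exon of the gene begins. Capitals mark the CCAAT box, which reads ATTGG on the other strand, and TCACNCCAC, a fixed spelling of the sterol regulatory element. They lie at chr1:155308616-155308747 on the plus strand (FDPS), chr5:43313513-43313662 on the minus strand (HMGCS1), chr4:165327419-165327622 on the plus strand (MSMO1), chr22:41832855-41833078 on the plus strand (SREBF2, where an exon of the antisense gene SREBF2-AS1 overlaps), chr2:118088221-118088451 on the plus strand (INSIG2) and chr9:104928238-104928405 on the minus strand (ABCA1, inside the antisense gene AL359182.1). All 6 read 5′ to 3′ on the strand of the gene.
FDPS: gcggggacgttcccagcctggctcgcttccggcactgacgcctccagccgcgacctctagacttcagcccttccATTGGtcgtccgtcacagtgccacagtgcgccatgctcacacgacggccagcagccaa
HMGCS1: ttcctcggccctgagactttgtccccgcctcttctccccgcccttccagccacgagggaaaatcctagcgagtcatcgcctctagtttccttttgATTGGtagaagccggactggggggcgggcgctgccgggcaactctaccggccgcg
MSMO1: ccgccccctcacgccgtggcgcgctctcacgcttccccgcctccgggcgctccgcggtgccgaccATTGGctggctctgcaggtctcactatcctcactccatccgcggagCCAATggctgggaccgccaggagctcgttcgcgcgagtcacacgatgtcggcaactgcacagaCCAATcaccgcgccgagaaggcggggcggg
SREBF2: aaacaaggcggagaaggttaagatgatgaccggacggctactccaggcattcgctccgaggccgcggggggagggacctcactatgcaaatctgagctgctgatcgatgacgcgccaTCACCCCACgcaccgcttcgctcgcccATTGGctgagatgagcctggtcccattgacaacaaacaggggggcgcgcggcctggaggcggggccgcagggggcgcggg
INSIG2: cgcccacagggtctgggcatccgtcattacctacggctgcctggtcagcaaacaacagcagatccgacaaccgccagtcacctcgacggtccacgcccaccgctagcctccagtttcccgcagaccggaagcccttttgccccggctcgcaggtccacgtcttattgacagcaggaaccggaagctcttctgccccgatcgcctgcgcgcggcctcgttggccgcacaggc
ABCA1: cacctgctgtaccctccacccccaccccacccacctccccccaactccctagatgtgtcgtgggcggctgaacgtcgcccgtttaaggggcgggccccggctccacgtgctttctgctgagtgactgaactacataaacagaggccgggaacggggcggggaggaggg

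A match of these letters is a description of the sequence, not a site of binding. CCAAT, searched on both strands, occurred in 12 of the 15 mevalonate and sterol step promoters (80%) and in 19 of the 31 member promoters that the RefSeq table held (61.3%), against 35.9% of 13176 promoters of tested genes. MSMO1 held 4 copies, the last of them past the end of the printed stretch, and SREBF2 1. Copies in FDPS began at -176, -122 and -51 bases from the start, and in HMGCS1 at -155 and -100. Of these, only the copy furthest from the start lies whole within the printed stretch of each gene. Neither INSIG2 nor ABCA1 held one, and nor did AACS, the other gene with a promoter in the table that fell in HCC44. Presence of the box did not separate members by response: it was in 11 of the 18 promoters of genes that rose in HCC44 (61.1%) and in 8 of the 13 of genes that did not (61.5%). TCACNCCAC occurred in 1 of 31, that of SREBF2, where it began 133 bases before the start, against 1.1% of promoters of tested genes. Only exact matches of this spelling were counted, so a promoter without one is not shown to lack a sterol regulatory element. The GC box GGGCGG was in 29 of 31 (93.5%), against 66.7%, and the E-box CACGTG in 5 of 31 (16.1%), against 9.51%. Each motif was searched on both strands, and matches of different motifs could share bases.

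The mevalonate and isoprenoid steps moved furthest with ACBI1 in HCC44. All 7 genes had higher levels in both HCC44 ACBI1 libraries than in both DMSO libraries, 6 passed the test, and their median log2 fold change was 1.04. Among all tested genes, 34.1% were placed above in this way in HCC44 and 17.5% were called higher. In H1975 1 of the 7, PMVK, rose, and the median was 0.22. None of the 7 was called lower in either line, by edgeR's quasi-likelihood test, at an unadjusted p under 0.05 or by DESeq2, by which all 7 rose in HCC44. Other edgeR settings called HMGCS1 lower in H1975.

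FDPS (farnesyl diphosphate synthase, chr1:155308748-155320666), which makes the precursor of both sterols and prenyl groups, was at 250 and 298 CPM in the HCC44 DMSO libraries and at 644 and 931 in the ACBI1 libraries. In H1975 it was at 148 and 146 CPM in DMSO and at 166 and 170 in ACBI1. Both HCC44 ACBI1 libraries thus lay above every other library, and all 4 H1975 libraries lay below the HCC44 controls. FDPS rose in HCC44 by 1.52 ± 0.16 in log2 units (SE, adjusted p = 7.43e-05), a 2.87-fold change, and its H1975 change was 0.19 ± 0.15 (SE, adjusted p = 0.376). The change was larger in HCC44 by 1.33 ± 0.22 (SE, adjusted p = 0.00312). Reads of FDPS share 18.6% of its exon bases with the antisense gene RUSC1-AS1, and 8 annotated pseudogenes bear its name, so part of its counts is uncertain.

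ACAT2, the cytosolic thiolase that condenses 2 acetyl-CoA units, was at 21.3 and 28.9 CPM in HCC44 DMSO and at 54.3 and 79.5 in HCC44 ACBI1. In H1975 the levels were 14.2 and 14.6 CPM in DMSO and 14.1 and 14.9 in ACBI1, so that these groups overlapped. It rose by 1.41 ± 0.19 (log2, SE, adjusted p = 0.000281) in HCC44. The H1975 value was 0.01 ± 0.19 (SE, adjusted p = 0.983), with a 95% interval of -0.41 to 0.42, and the lines differed by 1.41 ± 0.26 (SE, adjusted p = 0.00558). Exons of ACAT2 share 52.3% of their bases with genes on the opposite strand (SOD2, SOD2-OT1 and TCP1), and the strand setting of the counting is not given in the sources used here.

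HMGCS1 (HMG-CoA synthase, chr5:43289395-43313512) joins a further acetyl-CoA in the next step. It was at 39.4 and 46.2 CPM in HCC44 DMSO and at 73 and 116 in HCC44 ACBI1, whereas in H1975 it was at 53.8 and 59.6 CPM in DMSO and at 42.1 and 44 in ACBI1. The treated libraries were therefore above the controls in HCC44 and below them in H1975. It rose in HCC44 by 1.15 ± 0.19 (log2, SE, adjusted p = 0.00162), and its H1975 change of -0.40 ± 0.19 (SE, adjusted p = 0.146) did not pass. At nearly the same fold change it was called lower in H1975 with no filter on low counts (adjusted p = 0.00388), with only the H1975 libraries in the fit (adjusted p = 0.0152) and without HCC44 ACBI1 replicate 1 (adjusted p = 0.0144) or 2 (adjusted p = 0.0153). The difference between the lines, 1.54 ± 0.27 (SE, adjusted p = 0.00513), was the largest of the 36 genes in the upward direction.

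IDI1, the isomerase of isopentenyl diphosphate, was at 44.8 and 62.4 CPM in HCC44 DMSO and at 91.7 and 129 in HCC44 ACBI1. H1975 levels were 36 and 35.8 CPM in DMSO and 40.7 and 42.7 in ACBI1. It rose in HCC44 by 1.04 ± 0.18 (log2, SE, adjusted p = 0.0017), and its H1975 change was 0.22 ± 0.18 (SE, adjusted p = 0.396). The difference of 0.83 ± 0.25 (SE, adjusted p = 0.0483) lay close to the threshold, and leaving out any of 6 libraries ended this call, with adjusted p of 0.11 to 0.139.

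PMVK, phosphomevalonate kinase, was the mevalonate gene that rose in H1975. It was at 53.6 and 54.6 CPM in H1975 DMSO and at 81.4 and 86.2 in H1975 ACBI1. The HCC44 libraries held 37.5, 36.6, 47.2 and 47.1 CPM in the same order. It rose by 0.63 ± 0.09 (log2, SE, adjusted p = 0.000433) in H1975. In HCC44 the rise was 0.35 ± 0.09 (SE, adjusted p = 0.00989). The HCC44 call was lost without DMSO replicate 1 (0.36, adjusted p = 0.0531) or DMSO replicate 2 (0.34, adjusted p = 0.0681). MVK, the kinase before it, rose in HCC44 by 0.67 ± 0.14 (SE, adjusted p = 0.0038). The decarboxylase MVD had a change of 0.72 ± 0.25 in HCC44 that did not pass (SE, adjusted p = 0.0581), with 114 CPM in ACBI1 replicate 2 against 61.2 in replicate 1. MVD was called higher in HCC44 by DESeq2 (adjusted p = 0.00447), with no filter (adjusted p = 0.00151), with a filter of 1 CPM (adjusted p = 0.0395), with library totals (adjusted p = 0.0357) and without HCC44 ACBI1 replicate 1 (1.10, adjusted p = 9.85e-05). In H1975 its change of 0.38 ± 0.25 (SE, adjusted p = 0.291) was called with only the H1975 libraries in the fit (adjusted p = 0.0155) and without HCC44 ACBI1 replicate 1 (adjusted p = 0.0135) or 2 (adjusted p = 0.0149).

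**Figure D2:**
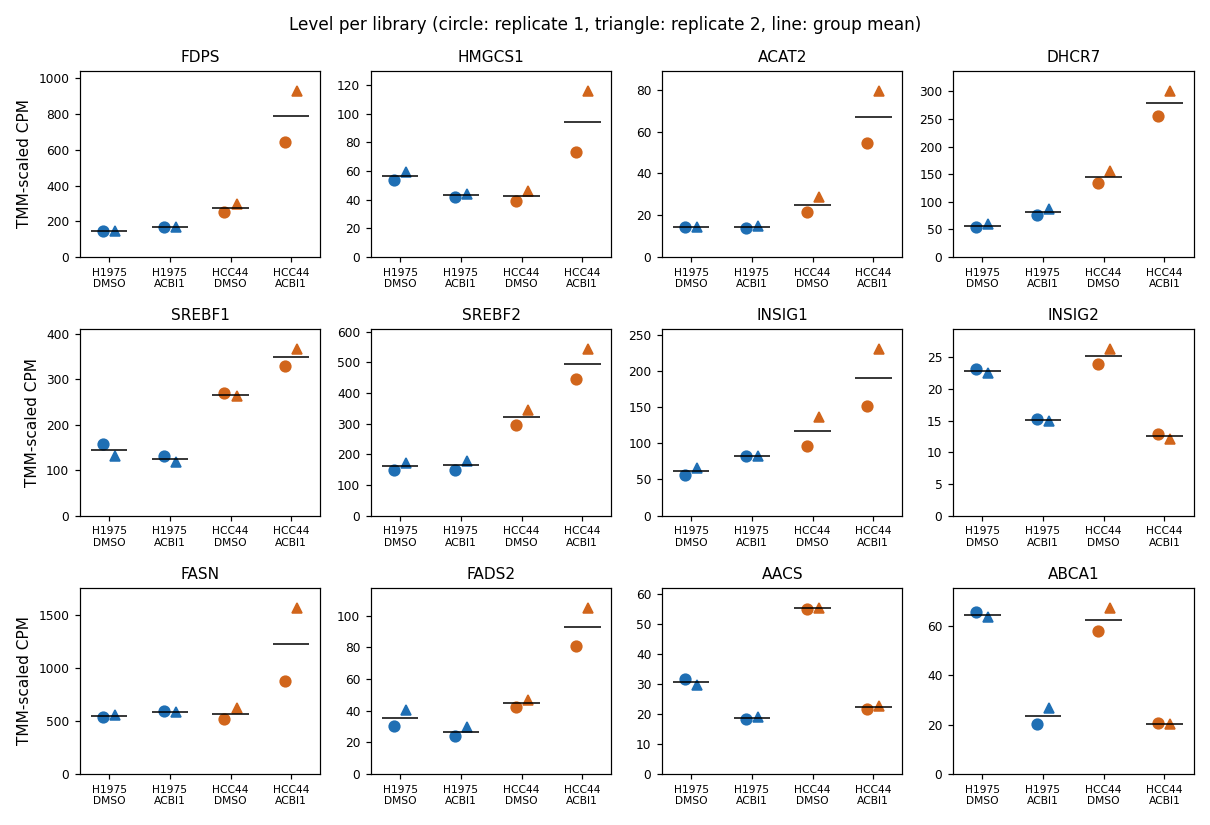
TMM-scaled CPM (y axis, from 0) of 12 genes in each of the 8 libraries, with groups on the x axis, circles for replicate 1, triangles for replicate 2 and a line at the group mean. FDPS reached 644 and 931 CPM in HCC44 ACBI1 against 166 and 170 in H1975 ACBI1, and ABCA1 was at 20.1 to 26.8 CPM in all 4 ACBI1 libraries against 57.8 to 67.4 in the DMSO libraries.

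Of the 11 genes that carry farnesyl diphosphate through squalene to cholesterol, 6 rose in HCC44 (SQLE, CYP51A1, MSMO1, HSD17B7, SC5D, DHCR7) and 2 rose in H1975 (TM7SF2, DHCR7). Their median log2 fold change was 0.57 in HCC44 and -0.08 in H1975. None was called lower in either line, by edgeR's quasi-likelihood test, at an unadjusted p under 0.05 or by DESeq2, by which 8 rose in HCC44. Other edgeR settings called LSS lower in H1975.

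DHCR7 (chr11:71428193-71452868), the reductase that makes cholesterol from its last precursor, rose in both lines. It was at 53.8 and 58.9 CPM in H1975 DMSO and at 75.8 and 87.8 in H1975 ACBI1. HCC44 held 134 and 156 CPM in DMSO and 256 and 301 in ACBI1. The groups did not overlap in either line. The rise was 0.54 ± 0.12 (log2, SE, adjusted p = 0.00583) in H1975 and 0.94 ± 0.12 (SE, adjusted p = 0.000157) in HCC44. Both calls held with each of the 8 libraries left out in turn.

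TM7SF2, a sterol reductase, was at 10.2 and 12 CPM in H1975 DMSO, at 15.4 and 24.4 in H1975 ACBI1, and at 9.13, 8.97, 11.2 and 16.3 in HCC44 in the same order. It rose in H1975 by 0.84 ± 0.23 (log2, SE, adjusted p = 0.0187), and its HCC44 change of 0.60 ± 0.23 (SE, adjusted p = 0.0679) did not pass. TM7SF2 was called higher in HCC44 by DESeq2 (adjusted p = 0.0332) and by edgeR with no filter (adjusted p = 0.00162). It was also called there with library totals (adjusted p = 0.0355) and with only the HCC44 libraries in the fit (adjusted p = 0.0387). RLE size factors or a filter of 1 CPM left it uncalled in HCC44. The H1975 call was lost without ACBI1 replicate 2 (0.50, adjusted p = 0.153) or DMSO replicate 1 (0.73, adjusted p = 0.114).

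SC5D, the desaturase that acts before DHCR7, was at 17.1 and 19.9 CPM in HCC44 DMSO and at 24.5 and 30.5 in HCC44 ACBI1, and at 34.8, 37.4, 31.4 and 36.7 CPM in H1975 in the same order. It rose in HCC44 by 0.57 ± 0.14 (log2, SE, adjusted p = 0.00862), and the H1975 groups overlapped (-0.08 ± 0.14, SE, adjusted p = 0.695). The lines differed by 0.66 ± 0.20 (SE, adjusted p = 0.0405). MSMO1, which removes a methyl group from the sterol nucleus, had the same pattern of calls: its HCC44 change was 0.88 ± 0.19 (SE, adjusted p = 0.00735), its H1975 change -0.08 ± 0.19 (SE, adjusted p = 0.789) and the difference 0.96 ± 0.27 (SE, adjusted p = 0.0406). EBP, a sterol isomerase, was at 9.13, 10.6, 11.1 and 13.4 CPM in HCC44 and at 18.4, 17.2, 19.2 and 18.8 CPM in H1975, and did not pass in either line (0.31 and 0.10).

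SQLE (squalene epoxidase, chr8:124998497-125022283), CYP51A1 and HSD17B7 rose in HCC44 by 0.39, 0.57 and 0.49 on the log2 scale, with SE of 0.14 to 0.17. The calls of all 3 were lost without some libraries. Without HCC44 DMSO replicate 1 the adjusted p of the 3 genes was 0.107 to 0.313, and without HCC44 ACBI1 replicate 2 it was 0.0527 to 0.378. SQLE and HSD17B7 were also lost without any one of the 4 H1975 libraries (adjusted p of 0.0501 to 0.0537) and with only the HCC44 libraries in the fit (adjusted p = 0.0771 and 0.0577). SC5D was likewise lost without either of these libraries (0.46 and 0.41), and MSMO1 without HCC44 ACBI1 replicate 2 (0.64, adjusted p = 0.0529). CYP51A1 is also uncertain because 83.2% of its exon bases are shared with other annotated genes. The squalene synthase gene FDFT1 (0.36 ± 0.16, SE) and LSS, which closes the sterol rings (0.83 ± 0.30, SE), did not pass in HCC44. FDFT1 was called higher there by edgeR with no filter (adjusted p = 0.00468) and with library totals (adjusted p = 0.0476), but not by DESeq2. For LSS, HCC44 ACBI1 replicate 2 was at 83.1 CPM and replicate 1 at 40.3, against 31.2 and 38.3 in DMSO, and it was called higher in HCC44 by DESeq2 (adjusted p = 0.00336), with a filter of 1 CPM (adjusted p = 0.0416), with library totals (adjusted p = 0.0458) and without HCC44 ACBI1 replicate 1 (1.26, adjusted p = 0.000143). In H1975 LSS was at 39.3 and 43.4 CPM in DMSO and at 28.3 and 31 in ACBI1, a change of -0.48 ± 0.30 that did not pass (SE, adjusted p = 0.268). It was called lower there with only the H1975 libraries in the fit (adjusted p = 0.0107) and without HCC44 ACBI1 replicate 1 (adjusted p = 0.0113) or 2 (adjusted p = 0.0122). NSDHL did not pass in either line and was near 0 in HCC44 (-0.04 ± 0.10, SE).

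Over the 18 mevalonate and sterol genes together, summed CPM was 761 ± 21.6 (SD, n = 2) in H1975 DMSO, 833 ± 32.8 (SD, n = 2) in H1975 ACBI1, 990 ± 129 (SD, n = 2) in HCC44 DMSO and 1984 ± 465 (SD, n = 2) in HCC44 ACBI1. In HCC44 ACBI1 replicate 1 17 of the 18 genes were above the mean of the line's DMSO libraries, with a median log2 ratio of 0.38, and in replicate 2 18 of 18, with a median of 0.84. Replicate 2 was higher than replicate 1 for 17 of the 18 in HCC44 ACBI1 and for 15 of 18 in HCC44 DMSO. In bulk RNA, more cells with high levels and more RNA per cell cannot be told apart.

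**Figure D3:**
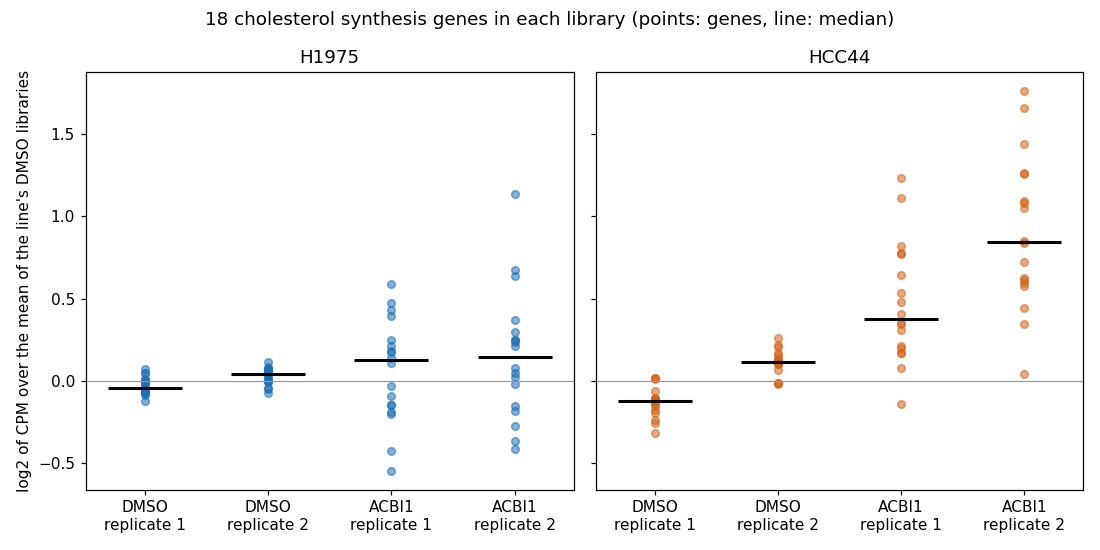
Log2 ratio of CPM to the mean of the DMSO libraries of the same line (y axis) for the 18 mevalonate and sterol genes (points) in each library (x axis), with black lines at the medians. Medians were 0.38 and 0.84 in the HCC44 ACBI1 libraries and 0.12 and 0.15 in the H1975 ACBI1 libraries.

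Growth genes and markers of cell state also changed in HCC44. All 16 genes of a proliferation list (MKI67, TOP2A, CDK1, MCM2 and others) rose with ACBI1 in HCC44, with a median log2 fold change of 1.63, and 2 of 16 rose in H1975, with a median of -0.01. Their summed CPM was 616 and 836 in HCC44 DMSO replicates 1 and 2, and 1572 and 2028 in HCC44 ACBI1 replicates 1 and 2, an order of the 4 libraries that matches the summed CPM of the 18 synthesis genes (899, 1081, 1656 and 2313). In H1975 the proliferation sums were 1656 and 1499 in DMSO and 1775 and 1430 in ACBI1. The synthesis sums there were 746 and 777 in DMSO and 809 and 856 in ACBI1, so in H1975 the orders did not match. In HCC44 the order of the synthesis sums was also that of summed CPM of 8 epithelial markers (966 and 1003 in DMSO, 1217 and 1686 in ACBI1). Summed CPM of 4 mesenchymal markers had it too (483, 587, 670 and 878). Single genes made up much of both sums. KRT7 was at 423, 459, 751 and 1122 CPM in these libraries, while KRT8 fell (228, 205, 146 and 157 CPM). VIM was at 417, 527, 542 and 732 CPM and did not pass in HCC44 (0.43 ± 0.15, log2, SE, adjusted p = 0.0529). Of the 4 mesenchymal markers, 1 rose and 1 fell in HCC44. In H1975 the epithelial sums were 5806 and 5465 in DMSO and 3132 and 2552 in ACBI1, and the mesenchymal sums 2225 and 2823 in DMSO and 949 and 1048 in ACBI1. Of the 8 epithelial markers, 3 rose and 2 fell in HCC44, and 4 fell in H1975. KRT7, a keratin, rose in HCC44 (1.09 ± 0.17, log2, SE) and fell by 1.07 in H1975, and FN1, fibronectin, rose in HCC44 (1.90 ± 0.19, SE) and fell by 1.77 in H1975. Of 6 endothelial and fibroblast markers, 1 rose and 3 fell in HCC44. The 1 that rose was the collagen COL1A1, from 89.5 and 71.1 CPM in DMSO to 200 and 404 in ACBI1. The part of proliferation and of cell state in the rise of the synthesis genes was not tested. Without HCC44 DMSO replicate 1, 9 of the 36 members rose in HCC44, and without HCC44 ACBI1 replicate 2, 12 did, with a median log2 fold change of 0.33. Without HCC44 ACBI1 replicate 1, 25 rose. Called in HCC44 with each of the 8 libraries left out in turn were 8 genes that rose (ACAT2, HMGCS1, MVK, IDI1, FDPS, DHCR7, FADS2, STARD4) and 4 that fell (INSIG2, AACS, ABCA1, ABCG1).

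Among the genes that control the pathway, transcripts of both SREBP genes rose in HCC44, INSIG1 rose there too, and INSIG2 fell in both lines. SREBF1 (chr17:17810399-17837002) encodes the SREBP proteins tied mainly to fatty acid synthesis. It was at 157 and 130 CPM in H1975 DMSO, at 130 and 117 in H1975 ACBI1, at 269 and 262 in HCC44 DMSO and at 330 and 366 in HCC44 ACBI1. The HCC44 treated libraries were the highest of the 8, and the H1975 treated libraries did not exceed their controls. SREBF1 rose in HCC44 by 0.39 ± 0.11 (log2, SE, adjusted p = 0.0148), its H1975 change was -0.22 ± 0.11 (SE, adjusted p = 0.149), and the lines differed by 0.61 ± 0.15 (SE, adjusted p = 0.0179).

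SREBF2 (chr22:41833079-41907308) encodes the SREBP protein tied mainly to cholesterol synthesis. It was at 148 and 173 CPM in H1975 DMSO and at 149 and 178 in H1975 ACBI1, so that these groups overlapped, and at 297 and 344 CPM in HCC44 DMSO and 446 and 543 in HCC44 ACBI1. It rose in HCC44 by 0.63 ± 0.13 (log2, SE, adjusted p = 0.0038), and its H1975 change was 0.03 ± 0.13 (SE, adjusted p = 0.889), with a 95% interval of -0.26 to 0.32. The difference was 0.59 ± 0.18 (SE, adjusted p = 0.0466). SREBF1 lost its HCC44 call without DMSO replicate 1 (0.41, adjusted p = 0.0698), DMSO replicate 2 (0.38, adjusted p = 0.0911) or ACBI1 replicate 2 (0.32, adjusted p = 0.084), and SREBF2 without DMSO replicate 1 (0.52, adjusted p = 0.0505). Counts of mRNA do not show how much SREBP protein was processed.

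SCAP, the escort of the SREBP precursors, was at 129, 155, 126 and 154 CPM in H1975 and at 105, 98.2, 103 and 118 CPM in HCC44, with DMSO before ACBI1. The treated and control libraries overlapped in both lines, with changes of -0.02 ± 0.12 (log2, SE, adjusted p = 0.916) in H1975 and 0.12 ± 0.12 (SE, adjusted p = 0.485) in HCC44. The 95% intervals were -0.29 to 0.25 and -0.15 to 0.39.

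The INSIG genes, which encode the proteins that retain SCAP, went in opposite directions in HCC44. INSIG1, itself a target of SREBP, was at 96.7 and 136 CPM in HCC44 DMSO and at 151 and 230 in HCC44 ACBI1, and at 56.2, 65.7, 82 and 82.5 CPM in H1975. It rose in HCC44 by 0.71 ± 0.22 (log2, SE, adjusted p = 0.0354), and its H1975 change was 0.43 ± 0.22 (SE, adjusted p = 0.174). The difference of 0.28 was not called (adjusted p = 0.591). Its HCC44 call was lost when any of 6 libraries was left out, with a lowest value of 0.37 without HCC44 ACBI1 replicate 2, and with only the HCC44 libraries in the fit (adjusted p = 0.0766). In H1975 it was called higher with no filter (adjusted p = 0.0195), with library totals (adjusted p = 0.0486) and with only the H1975 libraries in the fit (adjusted p = 0.0143).

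INSIG2 (chr2:118088452-118110997), whose promoter is printed above, was at 23.1 and 22.5 CPM in H1975 DMSO and at 15.3 and 14.9 in H1975 ACBI1. In HCC44 it was at 24 and 26.3 CPM in DMSO and at 12.9 and 12.1 in ACBI1. All 4 treated libraries lay below all 4 controls, and replicates were close. INSIG2 fell by 0.60 in log2 units in H1975 (adjusted p = 0.00311, SE 0.12) and fell by 1.01 in HCC44 (adjusted p = 0.000106, SE 0.12). The difference of -0.41 ± 0.16 was not called (SE, adjusted p = 0.111). The call held in both lines with each library left out in turn.

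Among the 9 fatty acid genes, the difference between the lines was called for 3: FADS2 and ELOVL6 (higher in HCC44) and AACS (lower). It was not called for the other 6. These included FASN (1.00 ± 0.33, SE, adjusted p = 0.0785), SCD (0.53 ± 0.22, SE, adjusted p = 0.133) and ACACA (0.11 ± 0.18, SE, adjusted p = 0.737). In HCC44, FASN, ACACA, SCD, FADS1 and FADS2 rose and AACS fell. In H1975, FADS1 rose and AACS and ELOVL6 fell. The median log2 fold change of the 9 genes was 0.46 in HCC44 and -0.01 in H1975.

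FASN (fatty acid synthase, chr17:82078333-82098332) was at 519 and 621 CPM in HCC44 DMSO and at 875 and 1567 in HCC44 ACBI1, against 541, 554, 595 and 582 CPM in H1975. It rose in HCC44 by 1.10 ± 0.24 (log2, SE, adjusted p = 0.00915), and its H1975 change was 0.10 ± 0.23 (SE, adjusted p = 0.78). HCC44 ACBI1 replicate 2 decided much of its size: without it the change was 0.62 (adjusted p = 0.00338). Without HCC44 DMSO replicate 1 the call was lost (0.97, adjusted p = 0.0513), as it was with no filter on low counts (adjusted p = 0.0793).

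FADS2 and FADS1 are neighbouring desaturases of polyunsaturated fatty acids on chromosome 11. FADS2 was at 42.2 and 47 CPM in HCC44 DMSO and at 80.7 and 105 in HCC44 ACBI1, whereas in H1975 it was at 30.3 and 40.3 CPM in DMSO and at 24.2 and 29.4 in ACBI1. The treated libraries were above the controls in HCC44 and below them in H1975. FADS2 rose in HCC44 by 1.06 ± 0.17 (log2, SE, adjusted p = 0.000896), the H1975 change of -0.40 ± 0.17 did not pass (SE, adjusted p = 0.0992), and the lines differed by 1.46 ± 0.24 (SE, adjusted p = 0.00296). It was called lower in H1975 with no filter (adjusted p = 0.00465) and without H1975 DMSO replicate 1 (-0.60, adjusted p = 0.0317). FADS1 rose in both lines. It was at 93.3 and 115 CPM in H1975 DMSO, 147 and 190 in H1975 ACBI1, 289 and 310 in HCC44 DMSO and 436 and 465 in HCC44 ACBI1. The changes were 0.69 ± 0.13 (SE, adjusted p = 0.00277) in H1975 and 0.59 ± 0.13 (SE, adjusted p = 0.00527) in HCC44, the latter lost without HCC44 DMSO replicate 1 (0.54, adjusted p = 0.054). FADS1 and FADS2 share 5.6 and 4.9% of their exon bases with other genes, in part with each other.

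AACS (chr12:125065379-125143333), which activates the ketone body acetoacetate for lipid synthesis, fell in both lines. It was at 31.5 and 29.7 CPM in H1975 DMSO, at 18.4 and 19 in H1975 ACBI1, at 55 and 55.4 in HCC44 DMSO and at 21.8 and 22.7 in HCC44 ACBI1. The replicates lay close together and the groups were far apart. AACS fell by 0.71 in log2 units in H1975 (adjusted p = 0.000509, SE 0.10) and fell by 1.31 in HCC44 (adjusted p = 8.4e-06, SE 0.10). It was the only member whose change was lower in HCC44 than in H1975 by the test of the difference (-0.60 ± 0.14, SE, adjusted p = 0.0144). That call was lost without H1975 ACBI1 replicate 2 (adjusted p = 0.0515) and without HCC44 DMSO replicate 1 (adjusted p = 0.0505) or 2 (adjusted p = 0.0539), at values of -0.61 to -0.59.

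ELOVL6, an elongase of saturated and monounsaturated fatty acids, was at 68.5 and 79.5 CPM in H1975 DMSO and at 40.4 and 47.7 in H1975 ACBI1. In HCC44 it was at 58.5 and 66.6 CPM in DMSO and at 55.5 and 61.8 in ACBI1, and these groups overlapped. ELOVL6 fell in H1975 by 0.75 in log2 units (adjusted p = 0.0011, SE 0.12), its HCC44 change was -0.09 ± 0.12 (SE, adjusted p = 0.598), and the lines differed by 0.66 ± 0.17 (SE, adjusted p = 0.0217). SCD, the desaturase that makes oleate and the most abundant member per length in all 4 groups (151 to 247 CPM per kb of exon), rose in HCC44 by 0.67 ± 0.16 (SE, adjusted p = 0.00897). ACACA, which makes malonyl-CoA, rose there by 0.46 ± 0.13 (SE, adjusted p = 0.0176). Both calls were lost without HCC44 DMSO replicate 1 (0.52 and 0.49) or ACBI1 replicate 2 (0.50 and 0.31), and that of ACACA also without DMSO replicate 2 (0.43). In H1975 ACACA was at 112 and 137 CPM in DMSO and at 145 and 173 in ACBI1. Its change there, 0.35 ± 0.13, did not pass (SE, adjusted p = 0.0625). ACACA was called higher in H1975 by edgeR with no filter (adjusted p = 0.00474), with a filter of 1 CPM (adjusted p = 0.0475) and with library totals (adjusted p = 0.00655). RLE size factors or only the H1975 libraries in the fit left it uncalled there. ACLY, which makes cytosolic acetyl-CoA from citrate, and ACSS2, which makes it from acetate, did not pass in either line. ACSS2 was at 64.3 and 64.7 CPM in H1975 DMSO and at 41.8 and 39.8 in H1975 ACBI1, so that the treated libraries lay below the controls, and its change there was -0.66 ± 0.32 (log2, SE, adjusted p = 0.162). It was called lower in H1975 by DESeq2 (adjusted p = 0.0439), with only the H1975 libraries in the fit (adjusted p = 0.00182) and without HCC44 ACBI1 replicate 1 (adjusted p = 0.00152) or 2 (adjusted p = 0.00159). In HCC44 it was at 37.4 and 46.3 CPM in DMSO, the ACBI1 libraries were far apart, at 21.4 and 46.8 CPM, and without ACBI1 replicate 2 it was called lower (-0.97, adjusted p = 0.00105).

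Of the 4 genes of sterol transport and export, STARD4 rose in both lines, ABCA1 fell in both, ABCG1 fell in HCC44 and MYLIP fell in H1975. STARD4, a carrier of sterols between membranes, was at 13.5 and 14.3 CPM in H1975 DMSO, at 20.1 and 24.5 in H1975 ACBI1, at 17.6 and 18.4 in HCC44 DMSO and at 30.5 and 25.6 in HCC44 ACBI1. Treated libraries were above the controls in both lines. The rises were 0.68 ± 0.14 (log2, SE, adjusted p = 0.00402) in H1975 and 0.64 ± 0.14 (SE, adjusted p = 0.00439) in HCC44.

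ABCA1 (chr9:104781002-104928237), which hands cholesterol to apolipoproteins, was at 65.5 and 63.6 CPM in H1975 DMSO and at 20.4 and 26.8 in H1975 ACBI1. In HCC44 it was at 57.8 and 67.4 CPM in DMSO and at 20.5 and 20.1 in ACBI1. The 2 lines thus started at like levels and ended at like levels. ABCA1 fell by 1.45 in log2 units in H1975 (adjusted p = 4.78e-05, SE 0.13), a 2.74-fold change, and fell by 1.63 in HCC44 (adjusted p = 1.46e-05, SE 0.14), a 3.08-fold change.

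ABCG1 (chr21:42199689-42297244), the partner pump, had measurable levels in HCC44 alone. There it was at 107 and 112 CPM in DMSO and at 30.5 and 28.8 in ACBI1, and it fell by 1.88 in log2 units (adjusted p = 7.03e-06, SE 0.14), a 3.69-fold change. The 4 H1975 libraries held 3, 0, 2 and 2 counts, at or under the limit of 3 counts that a count of 0 allows, so no fold change is given for that line. MYLIP, which marks lipoprotein receptors for degradation, was at 20.4 and 21.7 CPM in H1975 DMSO and at 13.9 and 13.5 in H1975 ACBI1. In HCC44 the libraries were at 36.8, 29.9, 32.5 and 34.6 CPM. It fell in H1975 by 0.62 in log2 units (adjusted p = 0.00409, SE 0.13), the HCC44 groups overlapped (0.01 ± 0.12, SE, adjusted p = 0.987), and the difference was 0.63 ± 0.18 (SE, adjusted p = 0.0313). ABCA1, ABCG1 and MYLIP are LXR targets. LPCAT3, a phospholipid enzyme and also an LXR target, rose in HCC44 (0.46 ± 0.10, SE, adjusted p = 0.00581), and its H1975 change was 0.03 ± 0.10 (SE, adjusted p = 0.849); it was named after its values were seen. Of the receptor genes, NR1H3 did not pass in either line (0.44 in H1975 and -0.40 in HCC44), and NR1H2 fell in H1975 by 0.28 in log2 units (adjusted p = 0.0221) and did not pass in HCC44 (0.19, adjusted p = 0.099).

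Set side by side, 4 members rose in both lines (PMVK, DHCR7, FADS1, STARD4) and 3 fell in both (INSIG2, AACS, ABCA1), and none rose in one line and fell in the other by edgeR or by DESeq2, with 1 (FADS2) doing so at an unadjusted p under 0.05. With no filter on low counts 2 (HMGCS1 and FADS2) fell in H1975 and rose in HCC44, and with only the groups compared in the fit 1 (HMGCS1) did. HMGCS1 and LSS did so without HCC44 ACBI1 replicate 1, HMGCS1 without replicate 2, and FADS2 without H1975 DMSO replicate 1. Of all 21307 tested genes, 1242 rose in both lines, 1508 fell in both and 476 were called in opposite directions. The absence of members called in opposite directions is near that last share, so it is not read as a trait of them. The difference between the lines was called for 12 of the 36, against 18.6% of all tested genes: 11 were higher in HCC44, against 10.2%, and 1 was lower, against 8.40%. Of all called differences, 54.9% were higher, and 40.5% with library totals as the scaling, where 6 members were higher and 3 lower. The 11 were ACAT2, HMGCS1, IDI1, FDPS, MSMO1, SC5D, SREBF1, SREBF2, FADS2, ELOVL6 and MYLIP. Of the 12, ACAT2, HMGCS1, FDPS and FADS2 were called with each of the 8 libraries left out in turn, and the other 8 lost the call without at least 3 of the libraries each. With RLE size factors IDI1 (adjusted p = 0.05), SC5D (adjusted p = 0.0531) and SREBF2 (adjusted p = 0.066) lost it too. The median difference over the members was 0.38, or 0.40 without ABCG1, against 0.04 for all tested genes. Without HCC44 ACBI1 replicate 2 it was 0.23, and without H1975 DMSO replicate 2 5 members were called higher.

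By position of the libraries alone, both ACBI1 libraries were above both DMSO libraries for 25 of 36 members in HCC44 and below for 4, against 34.1% and 32.7% of all tested genes (66.8% in either direction). In H1975 they were above for 15 and below for 13, against 33.1% and 34.2% (67.3% in either direction).

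The controls of the 2 lines already differed in these genes. In DMSO, 17 members were higher in HCC44 and 5 lower, 22 of 36 in all, against 67.9% of all tested genes, so the members were no more often called than other genes. By direction, 31.6% of tested genes were higher and 36.4% lower. FADS1 was 2.88-fold higher in HCC44 DMSO (1.52 ± 0.13 on the log2 scale, SE, adjusted p = 2.02e-06) and DHCR7 2.57-fold higher (1.36 ± 0.12, SE, adjusted p = 1.78e-06). SREBF2 and SREBF1 were higher by 1.00 ± 0.13 (SE, adjusted p = 4.74e-05) and 0.89 ± 0.11 (SE, adjusted p = 2.3e-05). SC5D was lower in HCC44 by a log2 value of -0.97 ± 0.14 (SE, adjusted p = 9.63e-05), EBP by -0.85 ± 0.14 (SE, adjusted p = 0.000296) and PMVK by -0.55 ± 0.09. ABCG1 showed the widest gap, with 13857 counts over the HCC44 DMSO libraries and 3 over those of H1975. The ratio per library size was 4812, with an exact 95% interval of 1646 to 23335 that covers counting error only. This comparison shares its DMSO libraries with the ACBI1 comparisons, so no relation between them is drawn.

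Of 69 further genes in lists of the same pathways, 64 were tested, and their calls leaned downwards. In HCC44 12 rose and 21 fell, against 17.5% and 17.4% of all tested genes, with a median log2 fold change of -0.05. In H1975 8 rose and 18 fell, against 14.6% and 16.7%, with a median of -0.02. The shares that rose were thus near those of all tested genes. Counts in the single lists below stand against these same shares. Among other isoprenoid and sterol genes, TMEM97, a sterol-regulated binding protein of the endoplasmic reticulum, rose in both lines (0.55 ± 0.12 in H1975 and 0.78 ± 0.12 in HCC44, log2, SE), as did the mitochondrial thiolase ACAT1 (0.35 and 0.51). ERG28, a scaffold of sterol enzymes, was at 36.3 and 37.9 CPM in H1975 DMSO and at 40.4, 40.2, 56.2 and 60.3 CPM in HCC44, and rose in HCC44 (0.53 ± 0.09, SE, adjusted p = 0.00143). FNTA, a subunit of the prenyl transferases that use farnesyl and geranylgeranyl diphosphate, fell in both, by 0.55 in H1975 and by 0.61 in HCC44, and NUS1, a subunit of the dolichol enzyme, fell in HCC44 by 0.55.

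Of 11 genes that process SREBP or regulate its partners, 1 rose and 5 fell in H1975, and 1 rose and 4 fell in HCC44. ERLIN1, an endoplasmic reticulum protein of the sterol-regulated degradation machinery, rose in both (0.59 and 0.47, SE 0.10). RNF145, a ubiquitin ligase of the same system, fell in H1975 by 0.85, from 147 and 133 to 84.9 and 71 CPM, and MBTPS1, the Golgi protease that first cuts SREBP, fell there by 0.51. In HCC44, ERLIN2 fell by 0.66 and FBXW7, the ligase subunit that marks nuclear SREBP, by a log2 value of -0.57.

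Of 20 other fatty acid genes tested, 2 rose and 6 fell in H1975, and 6 rose and 5 fell in HCC44. ACSL5, which activates long-chain fatty acids, was at 25.5 and 33.4 CPM in H1975 DMSO and at 2.05 and 2.66 in H1975 ACBI1. In HCC44 the libraries were at 48.6, 51.6, 10.7 and 10.8 CPM, with DMSO first. It fell by 3.65 in log2 units in H1975 (adjusted p = 2.54e-06, SE 0.18) and by 2.22 in HCC44 (adjusted p = 5.52e-06, SE 0.16), larger than any fall among the 36 members. FADS3, next to FADS1 and FADS2 in the genome, fell by 1.41 in H1975 (adjusted p = 5.28e-05, SE 0.13) and by 2.32 in HCC44 (adjusted p = 1.53e-06, SE 0.14), while FADS1 rose in both. ACACB, the mitochondrial acetyl-CoA carboxylase, was at 3.88 and 3.81 CPM in HCC44 DMSO and at 10 and 16.9 in HCC44 ACBI1 and rose by 1.81 ± 0.24 (SE, adjusted p = 0.000241). The citrate carrier SLC25A1 rose in HCC44 by 0.68 ± 0.18 (SE, adjusted p = 0.0181).

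Of 10 tested genes of glycerolipid synthesis and lipid droplets, 5 fell in HCC44 and none rose by edgeR, at an unadjusted p under 0.05 or by DESeq2, and 1 rose and 2 fell in H1975. PLIN2, the coat protein of lipid droplets, was at 102, 94.5, 62.8 and 55.2 CPM in H1975 and at 142, 143, 56 and 49.7 CPM in HCC44. It fell by 0.74 in log2 units in H1975 (adjusted p = 0.000392, SE 0.10) and by 1.43 in HCC44 (adjusted p = 4.9e-06, SE 0.10). LPIN2, a phosphatidate phosphatase, fell in HCC44 by 1.54 (SE 0.11, adjusted p = 4.85e-06), and DGAT2, which makes triglyceride, rose in H1975 by 1.20 ± 0.15 (SE, adjusted p = 0.00027). Of 13 LXR, export and ester genes tested, 2 rose in each line, and 4 fell in H1975 and 3 in HCC44. The HCC44 counts were near the shares of all tested genes. NCEH1, a cholesteryl ester hydrolase, rose in both (0.70 and 0.84, SE 0.11), OSBP fell by 0.92 in HCC44 (adjusted p = 2.72e-05, SE 0.09), and NPC2, a lysosomal sterol carrier, fell by 0.98 in H1975 (adjusted p = 0.000197, SE 0.12).

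**Figure D4:**
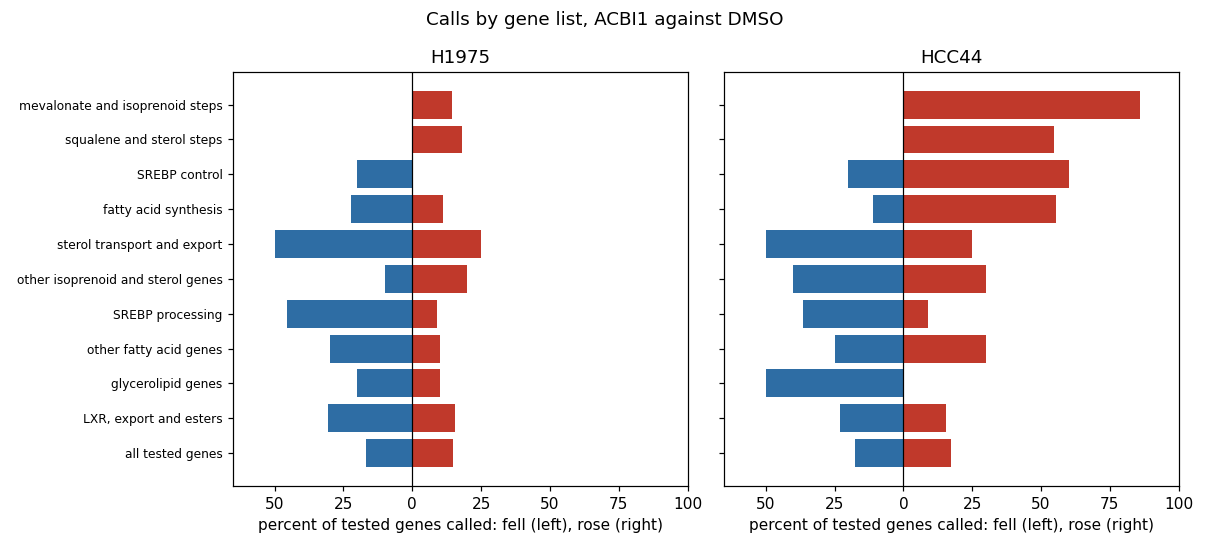
Percent of tested genes in each list (y axis) that rose (red, to the right of 0) or fell (blue, to the left) with ACBI1 in H1975 and HCC44, with all tested genes in the bottom row. In HCC44 6 of 7 mevalonate genes and 6 of 11 sterol genes rose and none fell, while 5 of 10 glycerolipid genes fell and none rose.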

How the data were processed

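RNA of 8 libraries, 2 in each of 4 groups, was compared. The authors deposited 1 table of read counts per gene and library. Per the submitters' processing notes, TopHat2 2.1.1, HTSeq 0.11.0 and build hg38 were used; the strand setting and the annotation are not given in the sources used here. The 5 summary rows (14.3 to 15.8% of each table) were left out. Per the labels' protocols the libraries were made with a kit named for DNA, and 1 HCC44 ACBI1 title shortens the compound's name.

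Counts were analysed in edgeR 4.0.16 (R 4.3.3): filterByExpr, TMM factors, 1 mean per group over all 8 libraries (4 residual degrees of freedom) and the robust two-sided quasi-likelihood F-test, with Benjamini-Hochberg adjustment over 21307 genes. SE was taken as the absolute log2 fold change over the root of its F value. Common biological variation (BCV) was 0.123. The procedure was tested on simulated data, but no outcome is reported here, so the p-values gain no weight from it. No gene had a deposited p-value or fold change. No library was a copy of another: between replicates, chi-square over its degrees of freedom was 24 to 48.4.

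Alternatives were RLE factors, library totals, DESeq2 1.42.0, no filter, 1 CPM in 2 libraries, only the groups compared, the replicate number as a block and each library left out. Members, lists and the naming rule were chosen with earlier results of these data known. The rule gave per-library values to 5 controllers, to up to 6 called members each way per line with 5 CPM or more, to up to 4 each way for the difference and 3 each way for DMSO, and named up to 2 genes each way per further list and line. Some pathway genes are not reported here. Gene positions, exon lengths and overlaps are from GENCODE release 29, and promoters from RefSeq (GRCh38.p14), which held 31 of the 36. Intervals of ratios cover counting error only. Figures were drawn with matplotlib 3.10.9.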

Additional observations from a re-analysis of the deposited data

Results flagged for a closer look

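The ACBI1 response differed between HCC44 and H1975 for 12 of the 36 genes by edgeR's quasi-likelihood test of the difference, with Benjamini-Hochberg adjustment. The log2 fold change was higher in HCC44 by 1.54 for HMGCS1, 1.46 for FADS2, 1.41 for ACAT2, 1.33 for FDPS, 0.96 for MSMO1 and 0.83 for IDI1. It was higher by 0.66 for SC5D, 0.66 for ELOVL6, 0.63 for MYLIP, 0.61 for SREBF1 and 0.59 for SREBF2. For ELOVL6 and MYLIP the difference came with a fall in H1975 and no call in HCC44, and for the other 9 with a rise in HCC44 and no call in H1975, all by this fit. AACS, which fell in both lines, was lower in HCC44 by a log2 value of -0.60.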

How the results depend on the processing

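With libraries scaled by their totals, the median gene shifted by 0.194 (log2) in H1975, 0.087 in HCC44, -0.114 in the difference and -0.116 between the DMSO groups. In H1975 5427 genes were then higher and 2080 lower, 10 members higher, and the members' median was 0.223; in the difference 6 members were higher and 3 lower. With only the groups compared in the fit, 8 members were lower in H1975. The sign of values that passed no test turned under library totals in H1975 for FDFT1 (0.055), MSMO1 (0.121), NSDHL (0.066), SC5D (0.121), SCAP (0.181) and ACLY (0.193) and in HCC44 for NSDHL (0.047). It also turned in H1975 for SCAP (0.009) and ACLY (0.022) with RLE factors and with DESeq2, and for ACLY (0.011) with the filter of 1 CPM. No called value turned. The cause was not tested.

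The replicate block was fitted within each line. Same-numbered libraries deviated together over genes, with a correlation of 0.589 in H1975 and 0.205 in HCC44, but 2 pairs per line show only a shared number. With the replicate block 8 members were higher and 10 lower in H1975, 26 higher and 4 lower in HCC44, and 17 higher in the difference. It called HMGCS1 (-0.394, adjusted p = 0.00931), FADS2 (-0.393, adjusted p = 0.00422), LSS (-0.482, adjusted p = 0.035) and SREBF1 (-0.213, adjusted p = 0.0374) lower in H1975, and all 4 rose in HCC44. It also called ACSS2 lower in H1975 (adjusted p = 0.0182) and MVD higher in HCC44 (adjusted p = 0.00655). In the difference under the block, 3481 of all genes were higher and 2877 lower.

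With each library left out in turn, all genes called in H1975 ranged from 1786 to 3290 (higher) and 1904 to 3871 (lower), and those called higher in HCC44 from 2413 to 3681. In the difference they ranged from 1306 to 2328 (higher) and 1035 to 1806 (lower). Members called lower in H1975 ranged from 5 to 8, members called higher in HCC44 from 9 to 25, and members called in the difference from 5 to 17 (higher) and 0 to 2 (lower). The members' median ranged from -0.050 to 0.120 in H1975, from 0.330 to 0.649 in HCC44, from 0.228 to 0.631 in the difference and from 0.177 to 0.505 between the DMSO groups. Values that did not pass with all 8 libraries crossed 0 in H1975 for ACAT2 (-0.019 to 0.082), MSMO1 (-0.155 to 0.040), SC5D (-0.177 to 0.060), SREBF2 (-0.083 to 0.199), SCAP (-0.155 to 0.168), ACLY (-0.089 to 0.117), SCD (-0.026 to 0.338) and ABCG1 (-0.679 to 3.965, on 0 to 3 counts). They did so in HCC44 for NSDHL (-0.138 to 0.046), ACLY (-0.001 to 0.291), ELOVL6 (-0.189 to 0.008), ACSS2 (-0.968 to 0.164) and MYLIP (-0.130 to 0.162), and in the difference for SCAP (-0.047 to 0.277) and INSIG1 (-0.058 to 0.557). A lone library left in a group is assumed to vary like the other groups. In the DMSO comparison 16 of 22 member calls held in every case.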
